A study of Mus musculus with 6 samples.

Results

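The core circadian clock genes were examined in the myocardium of mice lacking *Clk4* in cardiomyocytes. The 10 genes were *Arntl* (also called *Bmal1*), *Clock*, *Npas2*, *Per1*, *Per2*, *Per3*, *Cry1*, *Cry2*, *Nr1d1* and *Nr1d2*. They were chosen by gene symbol, out of 27307 symbols on the array. The array carried 24 probes for them, between 1 (*Npas2*, *Nr1d1*) and 4 (*Clock*) per gene. Of these probes, 15 were tested, from 9 of the 10 genes.

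All 6 animals were male C57BL/6J *Clk4*-cKO mice, which carry floxed *Clk4* alleles and a tamoxifen-inducible Cre (MerCreMer) under the cardiomyocyte promoter α-MHC. The groups differed in the *Nexn* vector that the mice received. The NEXN-WT group (n = 3 animals) received an adeno-associated virus (AAV, serotype 9) encoding wild-type nexilin, an actin-binding protein of the Z-disc. The NEXN-S437E group (n = 3 animals) received the same vector encoding nexilin with the S437E substitution, which mimics phosphorylation of that serine. The vector was driven by a CMV promoter and given intravenously, so its expression was not restricted to cardiomyocytes by the promoter. Both groups therefore shared the *Clk4* deletion, the Cre, tamoxifen and the virus, and hearts with intact *Clk4* were not analysed here. By the study's methods, virus was given at 5 weeks of age and tamoxifen between 6 and 8 weeks. The methods place the phenotyping of *Clk4*-cKO mice 3 weeks after tamoxifen began, without naming the hearts used for the arrays. The hour of day at which hearts were taken is not given in the sources used here. One Agilent 1-colour array was hybridised per heart, and the number of arrays limits the precision of every value below. The comparison addressed which transcripts differ when phosphomimetic rather than wild-type nexilin is supplied to the *Clk4*-deficient heart.

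The mammalian clock is a transcriptional feedback loop. ARNTL pairs with CLOCK, or with its paralogue NPAS2, and the pair binds E-box elements in the *Per*, *Cry* and *Nr1d* genes and activates them. PER and CRY proteins return to the nucleus and repress that pair, while the nuclear receptors NR1D1 and NR1D2 (REV-ERBα and REV-ERBβ) compete with ROR activators at ROR elements and repress *Arntl*. D-box elements, bound by DBP, TEF, HLF and the repressor NFIL3, add a further layer. In the heart the cardiomyocyte clock is known to time substrate use, ion channel expression and contractile function, and most of these transcripts cycle with the time of day.

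The *Arntl* probes are shown because the largest difference among the clock genes rests on them. Their coordinates are those of the array annotation (mm9, + strand), and all of them have at least 1 open reading frame of 3. The first, A_66_P127371, spans a splice junction within chr7:120435023-120436706. The second, A_55_P2735445, lies at chr7:120439030-120439089, and the third, A_52_P267651, at chr7:120456978-120457037. No base is in capitals, since no part of a probe is singled out.
A_66_P127371: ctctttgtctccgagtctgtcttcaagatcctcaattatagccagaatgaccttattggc
A_55_P2735445: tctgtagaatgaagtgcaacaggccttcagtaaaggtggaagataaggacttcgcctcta
A_52_P267651: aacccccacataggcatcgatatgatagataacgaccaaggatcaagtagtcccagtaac

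The elements through which these genes are wired to each other were looked up in RefSeq start-site windows (GRCm38.p6), each 250 bases before and 50 bases after an annotated start. The table held 13 windows for 9 of the genes, with none for *Per2*. On both strands, the E-box CACGTG was present in 2 of the 13 windows and in 7.15% of all 32851 windows. The ROR element, searched as TAGGTCA or TGGGTCA, was present in 1 window of the clock genes and in 6.45% of all windows. The D-box, searched as TTATGTAA or TTACGTAA, was present in 1 window and in 1.06% of all windows. The cAMP response element TGACGTCA was in none of the 13 and in 1.79% of all windows. A match is a string of letters, not a measured binding site, and a window without one says only that these letters are not in it. The matches are shown with the element in capitals, 5′ to 3′ on the strand of the gene. The *Per1* E-box starts 166 bases before a start (chr11:69098771-69098800, + strand) and the *Cry1* E-box 60 bases before (chr10:85185097-85185126, − strand). The *Per3* window holds a D-box 205 bases before the start (chr4:151044852-151044881, − strand) and another 158 bases before it (chr4:151044805-151044834, − strand). The *Arntl* ROR element starts at base 31 after a start (chr7:113207530-113207559, + strand).
*Per1*: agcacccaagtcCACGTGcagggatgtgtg
*Cry1*: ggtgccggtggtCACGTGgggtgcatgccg
*Per3*, upstream match: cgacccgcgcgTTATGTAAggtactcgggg
*Per3*, downstream match: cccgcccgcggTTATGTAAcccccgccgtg
*Arntl*: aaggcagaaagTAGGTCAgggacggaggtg

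Values below are log2 signals relative to the 75th percentile of the array, taken over the probes detected on all 6 arrays, so that 0 is that percentile and a negative value is dimmer. Between 41.9% and 47.8% of spots per array were well above background. A probe was tested if the 3 arrays of one group or of the other all read it well above background, which kept 22997 probes of 13746 genes. The chip that held the 6 arrays was scanned once. Its row 1 held the 3 NEXN-WT arrays and NEXN-S437E 1, and its row 2 held NEXN-S437E 2 and 3. The array NEXN-WT 1 stood apart over all probes, with a mean absolute log2 difference of 0.37 and 0.43 from the other NEXN-WT arrays, which differed from each other by 0.25. The endogenous *Clk4* transcript did not serve as a check of the labels, because every animal carried the deletion. Its tested probe differed by 0.05 (log2) between the groups, and the *Nexn* probes by −0.06 and 0.06. Whether these probes read the vector's transcript is not known.

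Among the tested clock probes, *Arntl* alone was lower by 2-fold or more. Signal of its tested probe was at 0.477 of the NEXN-WT level in NEXN-S437E hearts. *Clock*, which encodes the partner of ARNTL, was lower by less than 2-fold on its brightest probe. The 12 probes of the repressor genes *Per*, *Cry* and *Nr1d* had log2 fold changes from −0.26 to 0.29, with p-values from 0.142 to 0.988 (limma). None of the 15 probes passed an adjusted p of 0.05 (limma, Benjamini-Hochberg over all tested probes), a threshold that 0.148% of all tested probes passed. One of the 15, *Arntl*, passed the study's thresholds of a 2-fold change and an unadjusted p below 0.05, which 2.57% of all tested probes passed. At an unadjusted p below 0.05 alone, 2 of the 15 were lower and none higher, against 16.4% of all tested probes. The groups did not overlap for the same pair of probes, against 26.8% of all tested probes. The 1 probe in 15 at 2-fold is a larger share than its background, and the 2 probes in 15 are smaller shares than theirs. Their median log2 fold change was 0.02, and that of all tested probes was 0.01.

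**Figure D1:**
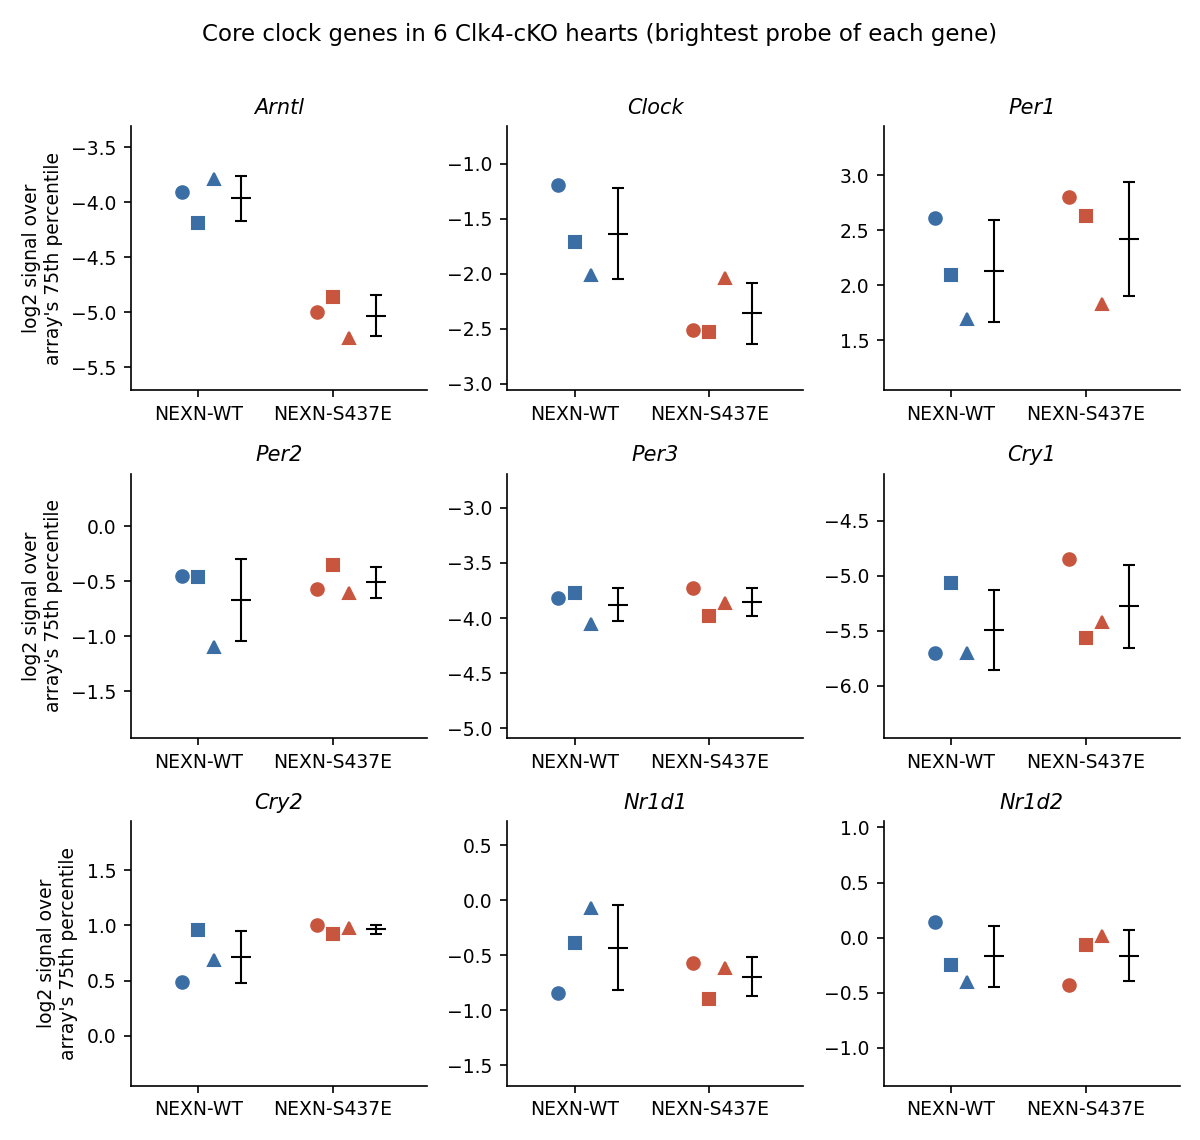
Log2 signal over the array's 75th percentile (vertical axes, all of the same span) for the brightest probe of the 9 detected clock genes. Circles, squares and triangles are replicates 1, 2 and 3 of NEXN-WT (blue) and NEXN-S437E (red), and black marks are means with SD (n = 3); the groups do not overlap for *Arntl* and *Clock*.

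*Arntl* encodes the obligate activator of the loop. Relative log2 signals of probe A_52_P267651 were −3.91, −4.19 and −3.79 in NEXN-WT 1, 2 and 3. In NEXN-S437E 1, 2 and 3 they were −5.00, −4.86 and −5.23. All NEXN-S437E arrays were below all NEXN-WT arrays, and the group means of −3.96 ± 0.21 and −5.03 ± 0.19 (SD, n = 3) were separated by far more than the spread within a group. The log2 fold change was −1.07 (SE 0.17, 95% interval −1.46 to −0.68), a 2.10-fold lower level, and the adjusted p was 0.0889 (limma). It ranked 75 of the 22997 probes by p. The exact two-sided permutation test gave 0.1, the smallest p that 3 against 3 arrays allow.

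*Arntl* was a faint transcript on these arrays. Before scaling, the signal of this probe was 101, 57.5 and 68.5 units in NEXN-WT and 21.7, 34.2 and 23.3 units in NEXN-S437E. Relative to the percentile, the dimmest detected probe lay between −6.41 and −6.15 on the NEXN-WT arrays and between −6.14 and −5.73 on the NEXN-S437E arrays, so the second group was close to that floor. With the normexp background correction, which adds an offset of 50 units to every spot, the log2 fold change was −0.21 (adjusted p = 0.419, limma). The call at 2-fold was also lost, with values just short of it, when NEXN-WT 3 (−0.98) or NEXN-S437E 3 (−0.97) was left out.

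The other *Arntl* probes were dimmer and were not tested. The junction probe A_66_P127371 read −4.82, −6.35 and −5.17 in NEXN-WT hearts and −6.40, −7.48 and −7.10 in NEXN-S437E hearts, again without overlap. It was well above background on 2 of the 3 NEXN-WT arrays and on none of the NEXN-S437E arrays, which puts the NEXN-WT level at least 1.38-fold higher if the undetected NEXN-WT 2 is taken at its measured value. This figure sets the NEXN-WT mean against the higher of the NEXN-S437E signal and the dimmest detected signal of each array. A_55_P2735445 was detected on no array, and its groups overlapped, from −7.66 to −6.45 in NEXN-WT and from −8.28 to −6.69 in NEXN-S437E.

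**Figure D2:**
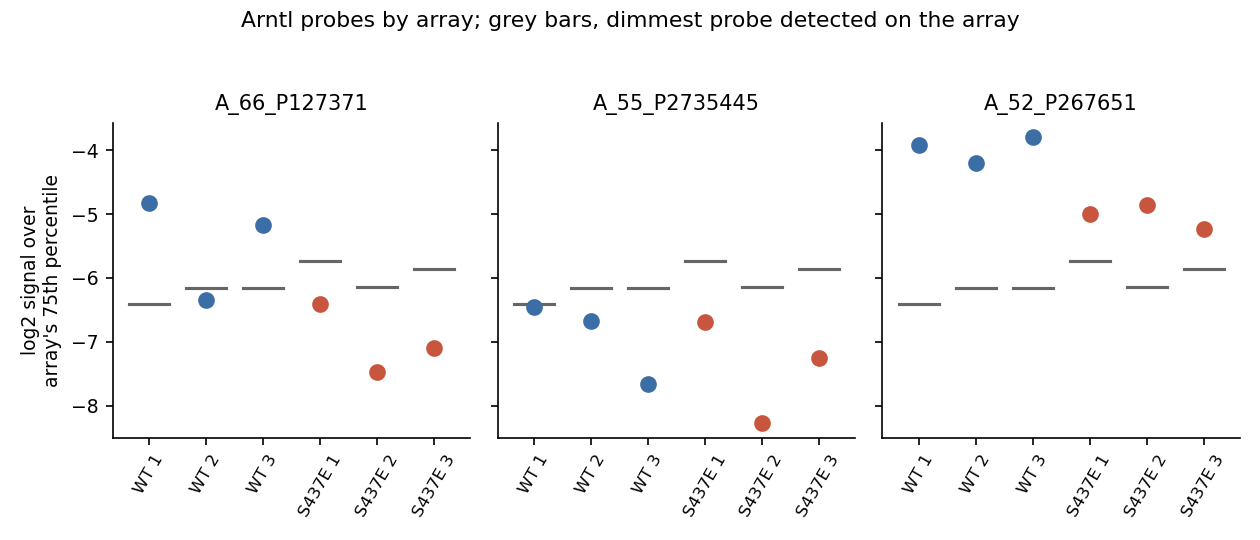
Log2 signal over the array's 75th percentile for the 3 *Arntl* probes, ordered by position in the gene, on each NEXN-WT (blue) and NEXN-S437E (red) array. Grey bars mark the dimmest probe detected on that array; only A_52_P267651 lies above them on all 6 arrays.

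The hearts are mixtures of cell types, and in bulk tissue fewer cells of a type and less RNA per cell cannot be told apart. Beside the lower *Arntl* signal, markers of other cell types also differed. The summed level of 7 fibroblast markers (log2 of the summed relative signals) was 6.72 to 7.51 in NEXN-WT and 6.18 to 6.29 in NEXN-S437E. Of the 7 genes, 4 were lower past the 2-fold and unadjusted thresholds, which 2.57% of all tested probes passed in either direction. That of 6 T and NK lymphocyte markers was −1.04 to −0.34 in NEXN-WT and −2.80 to −2.25 in NEXN-S437E, with 5 of the 6 genes lower past the same thresholds. Of these 5, *Cd3g* and *Klrd1* were well above background in all 3 NEXN-WT hearts and in 0 of the NEXN-S437E hearts, so they entered the test only through the group where they are high. Their NEXN-WT means were at least 2.31-fold and at least 2.04-fold above the bound that the dimmest detected signals set in NEXN-S437E. That of 7 cardiomyocyte markers was 8.09 to 8.35 in NEXN-WT and 8.55 to 8.62 in NEXN-S437E, with none of the 7 past those thresholds. Endothelial (3.00 to 3.43 and 3.19 to 3.37), macrophage (3.10 to 3.63 and 3.25 to 3.28) and smooth muscle sums (4.11 to 4.57 and 3.81 to 4.55) overlapped between the groups. Of 4 B lymphocyte markers, only *Cd79b* was measured, at −4.12 to −3.45 and −4.53 to −4.30. Every cardiomyocyte marker gene was detected in all 6 hearts. The part of these cell types in the *Arntl* difference was not tested.

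*Clock* encodes the transcription factor that pairs with ARNTL. Its brightest probe, A_55_P2746404 (chr5:76639992-76640051, mm9, − strand), read −1.19, −1.71 and −2.01 in NEXN-WT 1, 2 and 3. It read −2.51, −2.53 and −2.04 in NEXN-S437E 1, 2 and 3. The groups did not overlap, but NEXN-WT 3 and NEXN-S437E 3 lay next to each other. The log2 fold change was −0.72 (SE 0.24, 95% interval −1.29 to −0.16, adjusted p = 0.229, limma). It was −0.47 with normexp, and the unadjusted p was no longer below 0.05 when NEXN-S437E 1 (−0.65) or NEXN-S437E 2 (−0.64) was left out. Nor was it below 0.05 with the methods' t-test (−0.72) or with the slide row as a block (−0.87), which leaves 1 NEXN-S437E array in the comparison.

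The second tested *Clock* probe, A_52_P334670, did not separate the groups. It read −1.76, −2.81 and −3.38 in NEXN-WT and −3.31, −2.99 and −2.82 in NEXN-S437E, with a log2 fold change of −0.39 and an interval of −1.29 to 0.50. Both probes were highest on NEXN-WT 1, the array that stood apart over all probes. With NEXN-WT 1 left out, the log2 fold change of A_55_P2746404 was −0.50. Of the untested *Clock* probes, A_52_P279391 was detected on 2 NEXN-WT arrays and 1 NEXN-S437E array, with overlapping values, and A_55_P2741789 on none. *Npas2*, the paralogue that can replace CLOCK, had a single probe, A_52_P534749, which was detected on none of the 6 arrays. No level is given for it.

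**Figure D3:**
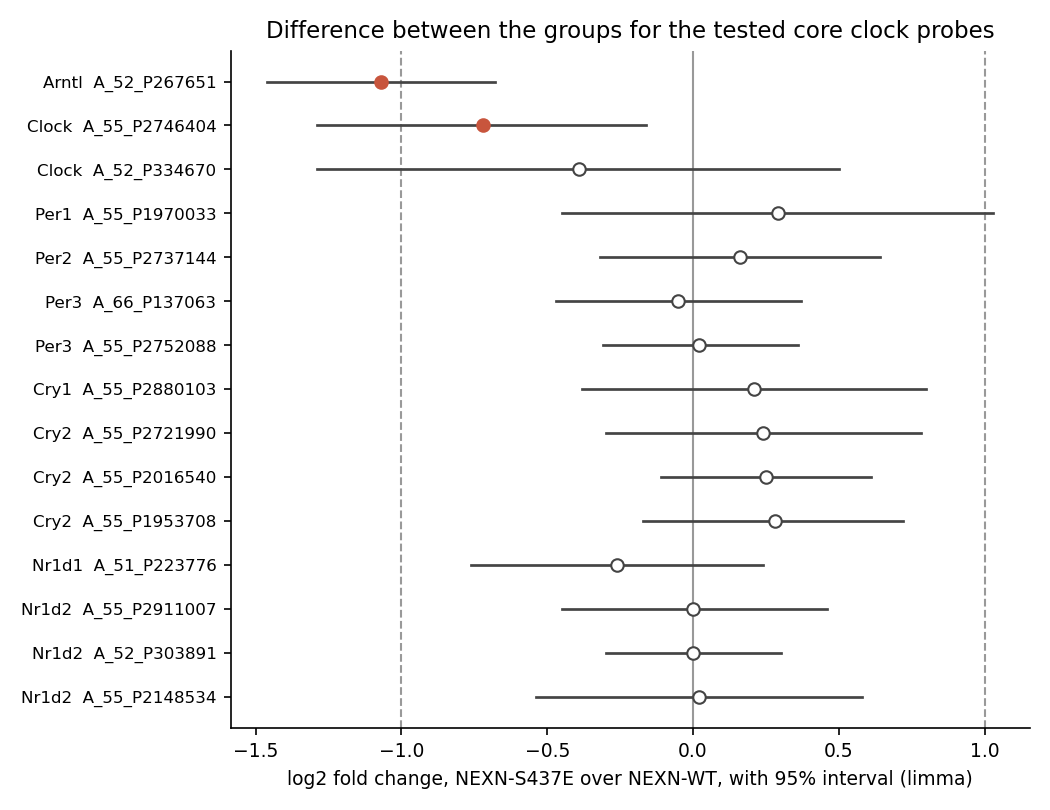
Log2 fold change (NEXN-S437E over NEXN-WT) with its 95% interval from limma for the 15 tested clock probes, grouped by gene. Red points have an unadjusted p below 0.05 and dashed lines mark 2-fold; 11 of the 15 intervals lie wholly within 2-fold in either direction.

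The period genes encode the repressors whose accumulation sets the length of the cycle. *Per1* was the most variable of them between animals, with A_55_P1970033 at 2.61, 2.09 and 1.69 in NEXN-WT and 2.80, 2.63 and 1.83 in NEXN-S437E. The spread within each group was larger than the difference of the means, and the groups overlapped. The within-group SD of this probe was larger than that of 91.9% of tested probes. Its log2 fold change of 0.29 had an interval of −0.45 to 1.03, which is too wide to exclude a 2-fold higher level. A dimmer *Per1* probe, A_55_P2019327, was well above background on NEXN-WT 1 only.

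*Per2*, a period gene that also responds to glucocorticoid and cAMP signals, was read by A_55_P2737144. Its values were −0.45, −0.46 and −1.10 in NEXN-WT and −0.57, −0.35 and −0.61 in NEXN-S437E, so that NEXN-WT 3 was the lowest and the groups overlapped. The log2 fold change was 0.16 (interval −0.32 to 0.64). Its other probe, A_52_P536869, was detected on no array.

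*Per3*, which is dispensable for rhythm generation in mice, was the steadiest of the period genes. A_55_P2752088 read −3.82, −3.77 and −4.05 in NEXN-WT and −3.73, −3.98 and −3.86 in NEXN-S437E. The log2 fold change was 0.02 (interval −0.31 to 0.36), and that of A_66_P137063 was −0.05 (interval −0.47 to 0.37). The third *Per3* probe, A_66_P135046, was detected on no array.

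The cryptochromes are the strongest repressors of the ARNTL and CLOCK pair. *Cry1* was faint, with A_55_P2880103 at −5.70, −5.07 and −5.70 in NEXN-WT and −4.85, −5.57 and −5.42 in NEXN-S437E. The highest and the lowest arrays belonged to different groups, but the groups overlapped, and the log2 fold change was 0.21 (interval −0.38 to 0.80). Its second probe, A_52_P420500, was detected on no array.

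*Cry2* was read by 3 probes with log2 fold changes of 0.25, 0.24 and 0.28. The brightest, A_55_P2016540, read 0.49, 0.96 and 0.69 in NEXN-WT and 1.00, 0.92 and 0.98 in NEXN-S437E. The NEXN-S437E values lay close together at the top of the NEXN-WT range, and the interval of the difference was −0.11 to 0.61 (adjusted p = 0.430, limma). The intervals of the other probes were −0.30 to 0.78 for A_55_P2721990 and −0.17 to 0.72 for A_55_P1953708. None of the 3 intervals reached 2-fold.

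*Nr1d1* encodes REV-ERBα, the repressor of *Arntl*. Its single probe, A_51_P223776, read −0.84, −0.39 and −0.07 in NEXN-WT and −0.57, −0.90 and −0.62 in NEXN-S437E. The NEXN-WT animals spanned almost the whole range, and the NEXN-S437E values fell inside it but for the lowest. The log2 fold change was −0.26 (SE 0.22, interval −0.76 to 0.24, adjusted p = 0.550, limma). It was −0.46 without NEXN-WT 1 (adjusted p = 0.328, limma) and −0.08 without NEXN-WT 3.

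*Nr1d2*, the paralogue of *Nr1d1*, gave log2 fold changes of 0.00, 0.00 and 0.02 on its 3 probes. The brightest, A_55_P2911007, read 0.14, −0.25 and −0.40 in NEXN-WT and −0.43, −0.07 and 0.01 in NEXN-S437E, with an interval of −0.45 to 0.46. A_52_P303891 read between −0.79 and −0.60 in NEXN-WT and between −0.73 and −0.63 in NEXN-S437E, and its interval of −0.30 to 0.30 was the narrowest of the clock probes. Only 6.0% of tested probes had a smaller within-group SD. For A_55_P2148534 the interval was −0.54 to 0.58.

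The arrays differed in the clock genes beyond the contrast of the groups. NEXN-WT 3 was the lowest of the NEXN-WT arrays on 12 of the 15 tested probes and the lowest of all 6 arrays on 8. Over these probes its mean absolute log2 difference from the other arrays was 0.44 to 0.54, against 0.22 to 0.29 among the NEXN-S437E arrays. Over all probes NEXN-WT 3 differed from the other arrays by 0.25 to 0.43. Without NEXN-WT 3, the log2 fold change of *Arntl* was −0.98, of *Clock* −0.91, of *Per1* 0.07 and of *Per2* −0.06.

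The genes with the profile most like that of *Arntl* over the 6 arrays were found among 21097 probes detected on all of them, by the root mean square (RMS) difference of the centred log2 values. The nearest 5 were *Galnt12* (RMS difference 0.14), *Atp10a* (0.16), *Adcyap1r1*, *Ciita* and *Med9os* (0.17 each), where the centred *Arntl* profile itself had an RMS of 0.56. They encode a mucin-type glycosyltransferase, a phospholipid-transporting ATPase, the PACAP receptor, the transactivator of MHC class II genes and a transcript antisense to *Med9*. Among the clock genes the nearest was *Clock*, at 0.43, and the most distant was *Per1*, at 0.78. For *Nr1d1*, whose centred profile had an RMS of 0.28, the nearest were *Ets1* (0.05), *Bdh1* and *Eps15l1* (0.06 each), and *Rgs3* and *Efna1* (0.08 each). These lists describe 6 arrays and were not tested.

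The wider clock pathway was described with 3 lists. The first held 11 transcription factors of the accessory loops, of which 10 were tested with 17 probes. None passed the adjusted or the 2-fold threshold, 10 probes were higher and 7 lower, and the median log2 fold change was 0.20. At an unadjusted p below 0.05, which 16.4% of all tested probes passed, 4 of the 17 probes were higher and none lower. *Ciart*, a repressor of the ARNTL and CLOCK pair whose expression follows E-boxes, was higher by 0.72 on A_52_P63343 (adjusted p = 0.271) and by 0.70 on A_66_P104483 (adjusted p = 0.251, limma). On A_52_P63343 it read −4.36, −3.51 and −3.70 in NEXN-WT and −3.39, −2.67 and −3.35 in NEXN-S437E, without overlap. *Hlf*, a D-box activator, was higher by 0.59 (adjusted p = 0.207). A probe of *Bhlhe41*, a competitor at E-boxes, gave the lowest value (−0.48, interval −0.98 to 0.03) but was well above background in 3 NEXN-WT hearts and only 1 NEXN-S437E heart. Its other probe, detected on 3 and 2 arrays, gave 0.10. Next in order were probe A_55_P2035320 of *Nfil3* (−0.37), the D-box repressor, and probe A_55_P2078123 of *Rora* (−0.30), which encodes a ROR activator. The brighter probes of these genes gave −0.28 and −0.29. The other D-box activators, named here after their values were seen, had intervals that included 0. *Dbp* was at 0.20 and 0.25 and *Tef* at 0.24 and 0.25. *Rorb* was the gene not tested.

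The second list held 19 kinases, ubiquitin ligases and cofactors that set the stability and activity of clock proteins, of which 18 were tested with 42 probes. None passed the adjusted or the 2-fold threshold, and the median log2 fold change was −0.03. At an unadjusted p below 0.05, 2 of the 42 probes were higher and none lower, a smaller share than the 16.4% of all tested probes. The groups did not overlap for 10 of the 42 probes, against 26.8% of all tested probes. *Usp2*, a deubiquitinase that acts on clock proteins and is itself rhythmic, was higher by 0.74 on A_55_P2491668. It read −0.09, 0.56 and 0.32 in NEXN-WT and 0.88, 1.10 and 1.02 in NEXN-S437E, without overlap (adjusted p = 0.168, limma). Its other probe was at 0.61 with an interval of −0.06 to 1.28. *Btrc*, a ligase subunit for PER proteins, was at 0.36 on A_52_P98674 (adjusted p = 0.293, limma) and at 0.20 on its brighter probe. *Csnk1d*, a PER kinase, was at −0.10 on its brightest probe and at 0.34 and −0.23 on the others. Low values were those of *Gsk3b* (−0.30 on A_66_P104190) and *Csnk1a1* (−0.29 on A_55_P2716551), both kinases, with intervals that included 0. Their brightest probes gave −0.16 and −0.18. *Fbxl21* was the gene not tested.

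The third list held 12 genes known to follow the clock in heart or other tissues, all tested, with 19 probes. Its median log2 fold change was 0.43, with 16 probes higher and 3 lower, while that of all tested probes was 0.01. At an unadjusted p below 0.05, which 16.4% of all tested probes passed, 8 of the 19 probes were higher and 1 lower, none with an adjusted p below 0.05. Of the genes, 2 passed the 2-fold and unadjusted thresholds with 1 probe each, against 2.57% of all tested probes. *Dgat2*, which makes triglyceride, read 3.13, 3.80 and 4.43 in NEXN-WT and 4.98, 4.69 and 4.87 in NEXN-S437E, a log2 fold change of 1.06 (adjusted p = 0.193, limma). *Lpl*, the lipase that releases fatty acids from circulating lipoproteins, was at 1.06 on A_55_P2738847 (adjusted p = 0.168). Its brightest probe, A_51_P259296, gave 0.43 (adjusted p = 0.256). The lower probe, A_55_P1986282, was one of *Cdkn1a*, a cell cycle inhibitor. It was well above background in all 3 NEXN-WT hearts and in 0 of the NEXN-S437E hearts, so it entered the test only through the group where it is high, and its NEXN-WT mean was at least 1.21-fold above the NEXN-S437E bound (adjusted p = 0.296, limma). The brighter *Cdkn1a* probe was at −0.19 with overlapping groups. *Lpl* supplied 4 of the 8 higher probes, and probes of 1 gene are not independent. Several genes of this list are expressed in cardiomyocytes. The 7 cardiomyocyte marker genes had 12 tested probes, all 12 of them higher, with a median of 0.35 by probe and by gene. At an unadjusted p below 0.05, 5 of these 12 probes were higher and 0 lower. Of the 7 genes, 0 passed the 2-fold and unadjusted thresholds. The part of the cardiomyocyte share in the values of the clock-controlled list was not tested.

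**Figure D4:**
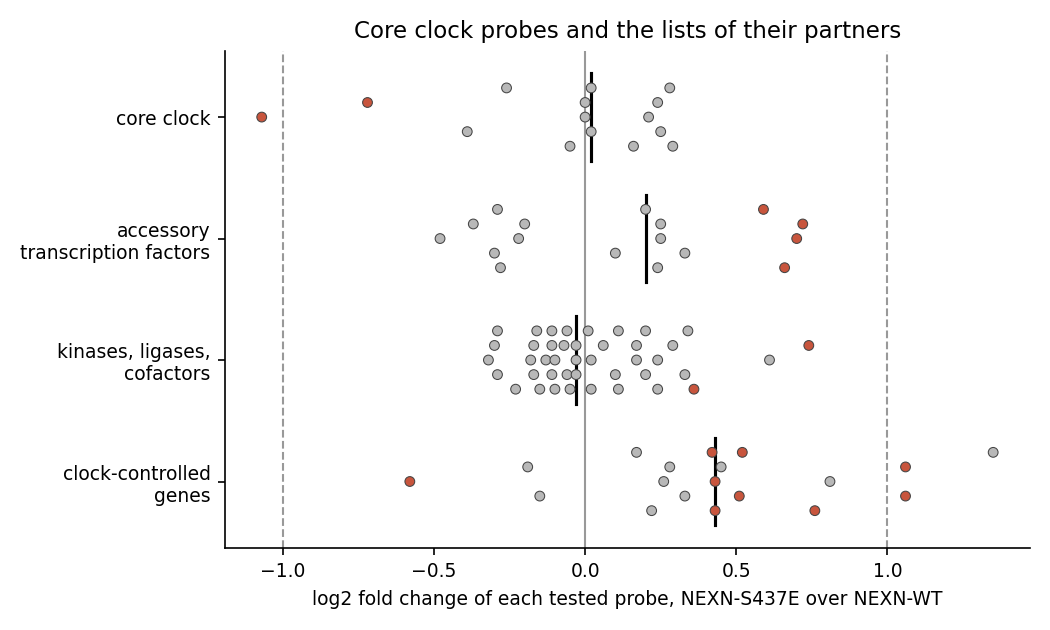
Log2 fold change (NEXN-S437E over NEXN-WT) of every tested probe of the core clock genes and the 3 partner lists. Red points have an unadjusted p below 0.05, black lines are list medians (0.02, 0.20, −0.03 and 0.43 from top to bottom) and dashed lines mark 2-fold.

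The *Arntl* value was computed under each processing alternative. It was negative under all 18 and lay between −1.18 and −0.97 under 17 of them. The exception was normexp, at −0.21. With the slide row as a block (−1.03) the comparison rests on 1 NEXN-S437E array. The adjusted p ranged from 0.0144 to 0.419, and it was under 0.05 with estimated array weights only.

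**Figure D5:**
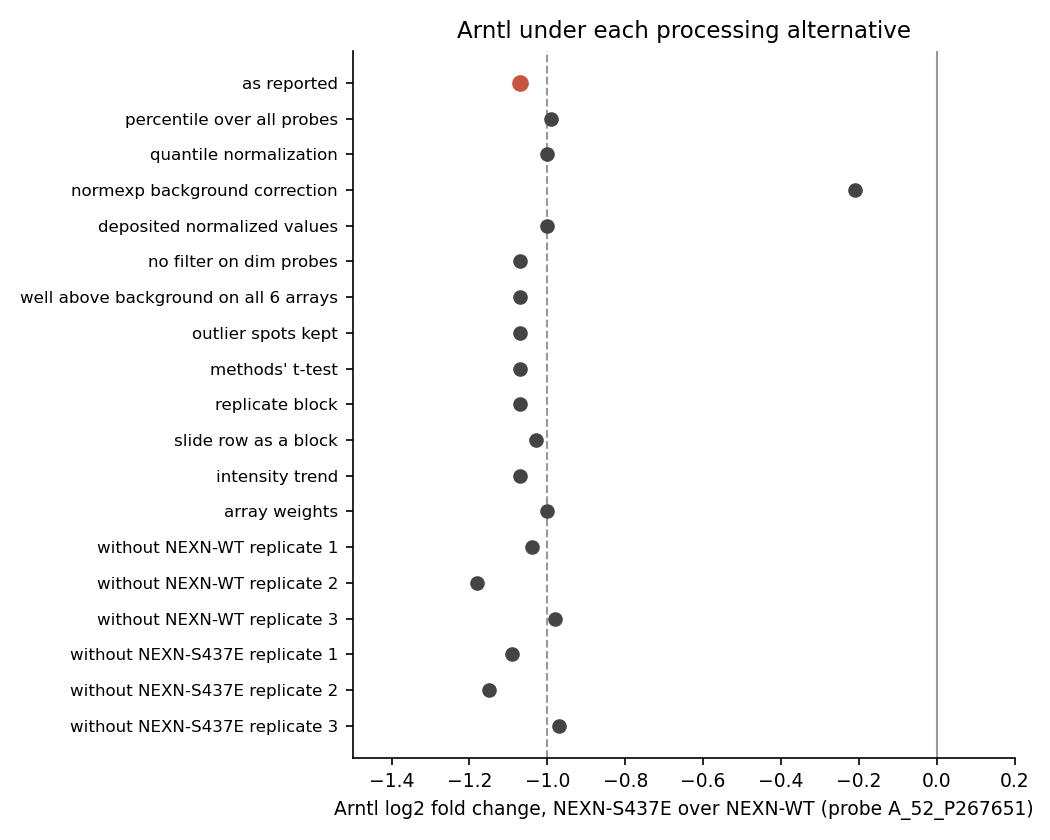
Log2 fold change of the tested *Arntl* probe (horizontal axis) as reported (red) and under each of the 18 alternatives (grey), with the dashed line at 2-fold. Values cluster at the 2-fold line, from −1.18 to −0.97, except for the normexp background correction at −0.21.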

How the data were processed

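Total RNA of 6 hearts (3 NEXN-WT, 3 NEXN-S437E) was hybridised by the authors to Agilent SurePrint G3 Mouse v2 8x60K arrays with 1 dye (Cy3). Per the file headers, Feature Extraction 10.7.1.1 gave each spot an intensity, background-subtracted and detrended. The authors' series table holds these intensities averaged per probe and normalized log2 values whose sorted columns are identical in the 6 arrays; the software is not given in the sources used here. Groups came from the sample labels.

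Here, control and outlier spots were dropped, spots of a probe averaged, and log2 intensity was taken minus the 75th percentile of the 21108 probes well above background on all 6 arrays. Probes that all 3 arrays of either group read well above background were fitted with limma 3.58.1 (lmFit, eBayes; R 4.3.3) without covariates, and p-values were adjusted by Benjamini-Hochberg over all 22997. Thresholds were an adjusted p under 0.05, and the study's 2-fold with unadjusted p under 0.05. The fit was tested on simulated data. The brightest probe stands for a clock gene or cell type marker, and values of list genes are given by probe. The members and lists were chosen with earlier results of these data known. Named are all 10 genes, list members past a threshold or otherwise the 3 highest and 3 lowest of each list, the 5 nearest profiles to *Arntl* and *Nr1d1*, and *Clk4*, *Nexn* and the cell type markers. Detection flags of the series table were not used; background and outlier flags came from the array files. Figures were drawn with matplotlib. Some list members that this rule would name are not reported here.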

Additional observations from a re-analysis of the deposited data

How the results depend on the processing

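The count of clock probes past the adjusted threshold, 0 as reported, was 1 (*Arntl*) with array weights and 0 under the other 17 alternatives. Over all probes that threshold gave 34 calls, 2084 with array weights, 12 with the replicate block, 18 among probes detected on all 6 arrays, 6 with no filter on dim probes, 0 with the methods' t-test or the slide row as a block, and 6 to 127 with an array left out. The count of clock probes past the 2-fold and unadjusted thresholds, 1 as reported, was 0 with the percentile over all probes, with normexp and with array weights, 2 with no filter, and 0 to 1 with an array left out, 0 without NEXN-WT 3 or NEXN-S437E 3. *Arntl* was at −0.99, −0.21 and −1.00 under the first 3 and at −1.18 to −0.97 with an array left out (adjusted p 0.0982 to 0.307). The normexp offset of 50 units lies within the range of the probe's own signals (21.7 to 101 units). Neither the part of the offset in the normexp value nor the cause of the other changes was tested. Over all probes the 2-fold thresholds gave 122 higher and 468 lower probes, 169 and 410 with the percentile over all probes, 30 and 146 with normexp, 1204 and 741 with no filter, 72 and 281 among probes detected on all 6 arrays, and 377 to 920 in all with an array left out. The median of all probes moved from 0.01 to 0.12 with normexp and to 0.20 with no filter. The accessory list had 0 calls at 2-fold, and 1 with no filter. The clock-controlled list had 2, with 1 under quantile normalization, the deposited values and the methods' t-test, 0 with normexp and array weights, 4 with the slide row as a block, and 1 to 3 with an array left out (1 without NEXN-WT 3 or NEXN-S437E 1). The list of kinases, ligases and cofactors had 0 under all 18.

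*Cry1* was at −0.20 with array weights and at −0.01 to 0.42 with an array left out. *Nr1d2* was at 0.00, below 0 before rounding, with quantile normalization, the deposited values and probe A_52_P303891 and at −0.11 to 0.16 with an array left out. *Per2* was at −0.06 to 0.27 and *Per3* at −0.06 to 0.09 with an array left out. *Per3* was at −0.06 with array weights, −0.05 on A_66_P137063 and −0.01 as the median of its probes. *Clock* (−0.91 to −0.50 with an array left out), *Cry2* (0.14 to 0.38), *Nr1d1* (−0.46 to −0.08) and *Per1* (0.07 to 0.58) kept their direction under all alternatives. At an unadjusted p under 0.05 the clock probes numbered 2 as reported, 3 without NEXN-WT 1 (with *Nr1d1*), without NEXN-WT 2 (with *Cry2*) and with array weights, 4 with no filter, and 1 with normexp, the methods' t-test, the slide row as a block and without NEXN-S437E 1 or 2. The methods' t-test called 416 probes at the study's thresholds and 0 after adjustment.

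Replicate numbers did not pair the arrays: same-numbered deviations correlated at −0.15, −0.03 and −0.18. With the replicate block *Arntl* was at −1.07 (adjusted p = 0.202, limma), with clock counts of 0 and 1. Slide row 2 held NEXN-S437E arrays only, so the slide row block compares the groups within row 1, with 1 NEXN-S437E array assumed to vary like the others. There *Arntl* was at −1.03 (adjusted p = 0.305, limma), *Clock* at −0.87 (adjusted p = 0.494), *Cry1* at 0.64 (0.21 as reported), *Per1* at 0.67 (0.29), *Nr1d1* at −0.13 (−0.26), *Nr1d2* at −0.26, *Per3* at 0.15, *Per2* at 0.10 and *Cry2* at 0.29.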
